A study of Mus musculus with 12 samples.

Results

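The genes described are 9 genes used to mark stem cells of the hair follicle and its bulge: the receptors Lgr5 and Lgr6, the surface protein Cd34, the keratin Krt15, and the transcription factors Sox9, Lhx2, Nfatc1, Tbx1 and Foxc1. They were taken as the probes whose gene name in the array files equals one of these symbols, which gave 14 probes of 41174 for 9 of 27373 gene names. RNA of whole back skin was measured on 12 two-colour Agilent arrays. The study asked how hair growth responds to a cactus cell extract beside a known hair growth drug.

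The mice were male C57BL/6J, 8 weeks old when bought, and their backs were shaved. From the next day the back received 200 µL a day of vehicle control (VC, a mixture of propylene glycol, ethanol and water), 3% MXD (minoxidil, the positive control) or 10% N-CE (cell extract of Notocactus ottonis made by cold vacuum extraction). Skin was taken after 1 week (1W), 2 weeks (2W) or 3 weeks (3W). RNA of 6 mice was pooled for each of the 9 groups, and each treated pool was hybridized together with same-week VC RNA, once with each dye assignment, which makes 2 arrays a comparison. MXD and N-CE of a week therefore share a VC pool. With 1 pool a group no test between groups exists, and each SD below is over the 2 arrays of a dye swap (n = 2) and describes the measurement, not the mice. The 4 arrays of a week lie on 1 slide, so that week and slide cannot be told apart.

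Hair follicles cycle through growth (anagen), regression (catagen) and rest (telogen). Stem cells whose progeny feed the growing hair bulb sit in the bulge and in the hair germ below it. The bulge is the part of the outer root sheath that outlasts each cycle. Several of the genes that mark these cells are also used outside the bulge, in the outer root sheath, the bulb or other skin cells, so a whole-skin measurement does not read the bulge alone. In RNA of whole skin, fewer cells of a type and less RNA per cell cannot be told apart.

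The 9 genes did not move as one. Of the transcription factor genes, Tbx1, Sox9, Foxc1 and Lhx2 were higher after MXD at 2W and lower after N-CE at 1W. Cd34, Nfatc1 and Lgr6 were lower after MXD at 2W and passed the rule in no other comparison. Lgr5 and Krt15 passed it nowhere. A gene was called when the error model of the array software gave P under 0.01 for each array of the dye swap, the arrays had the same sign, and the mean fold was above 1.5 or below 0.75. This held for 11 of the 54 values, which come from 7 of the 9 genes and lie in 2 of the 6 comparisons.

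**Figure D1:**
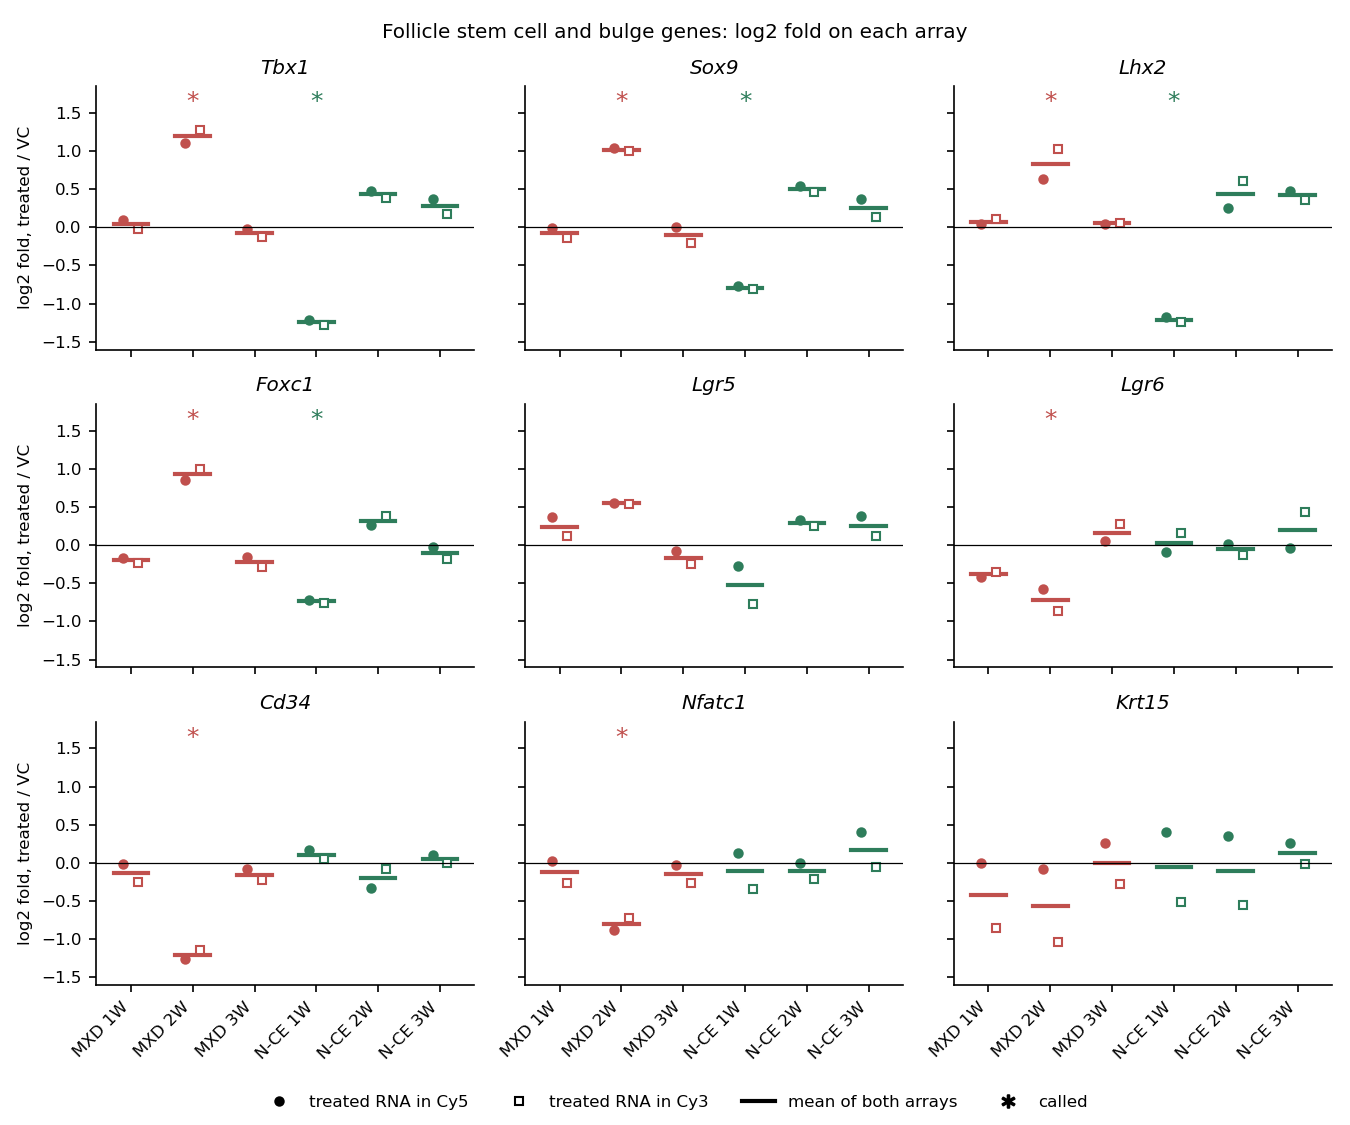
Log2 fold of treated over VC for each of the 9 genes in the 6 comparisons. Filled circles are arrays with treated RNA in Cy5, open squares arrays with treated RNA in Cy3, bars the mean of both, and a star marks a called value. Tbx1, Sox9, Lhx2 and Foxc1 carry stars at MXD 2W and N-CE 1W. The circles of Krt15, Lgr5 and Sox9 lie above their squares throughout, most widely for Krt15.

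After MXD at 2W, 4 of 9 genes were called higher, where 6.21% of the 18753 genes tested were, and 3 of 9 were called lower, against 10.0% of the genes tested. When all probes of a gene above background were averaged, Lgr6 (-0.48) and Nfatc1 (-0.62) were no longer called, which left Cd34 alone among the lower genes, a share near that of all genes. After N-CE at 1W, 4 of 9 were called lower, against 2.78% of 18235 genes, and none higher, against 0.543%. No member was called in the other 4 comparisons, in which few genes were called at all: 1.25% higher and 1.26% lower for MXD at 1W, 0.293% and 0.287% for MXD at 3W, 0.118% and 0.0752% for N-CE at 2W, and 0.209% and 0.214% for N-CE at 3W. Against such shares, a count of 0 among 9 genes is no result about the members.

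The promoters of the 4 genes that moved in both directions are shown first, as far as the RefSeq table used here holds them, because these genes share their pattern over the comparisons. Each line holds the 150 bases upstream of a transcription start on GRCm38.p6, written 5′ to 3′ on the gene's strand, and capitals mark the GC box GGGCGG or its reverse complement CCGCCC.
Lhx2 start 1, chr2:38339131-38339280, plus strand: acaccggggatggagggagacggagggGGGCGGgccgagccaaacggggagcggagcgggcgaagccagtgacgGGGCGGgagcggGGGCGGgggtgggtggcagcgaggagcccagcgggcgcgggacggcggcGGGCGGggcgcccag
Lhx2 start 2, chr2:38351158-38351307, plus strand: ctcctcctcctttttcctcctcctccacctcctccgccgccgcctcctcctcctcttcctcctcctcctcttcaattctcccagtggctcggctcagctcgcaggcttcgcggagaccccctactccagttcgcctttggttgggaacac
Tbx1 start 1, chr16:18588900-18589049, minus strand: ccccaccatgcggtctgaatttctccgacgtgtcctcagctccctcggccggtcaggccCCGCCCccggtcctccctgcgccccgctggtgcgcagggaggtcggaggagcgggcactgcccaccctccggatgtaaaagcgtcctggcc
Tbx1 start 2, chr16:18590672-18590821, minus strand: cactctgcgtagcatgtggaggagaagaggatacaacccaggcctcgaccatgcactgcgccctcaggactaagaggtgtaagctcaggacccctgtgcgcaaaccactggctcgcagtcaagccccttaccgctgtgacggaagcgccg
Foxc1, chr13:31806496-31806645, plus strand: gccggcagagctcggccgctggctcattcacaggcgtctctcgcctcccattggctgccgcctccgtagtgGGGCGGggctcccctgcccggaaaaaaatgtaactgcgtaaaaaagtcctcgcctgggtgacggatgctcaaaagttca
One start each of Lhx2, Tbx1 and Foxc1 held the GC box, with 4 copies at the first Lhx2 start, and 28.6% of all 32851 RefSeq windows of this length held it on either strand. The LEF/TCF core CTTTG was in the second Lhx2 window alone among these lines, against 31.5% of all windows, and the NFAT core GGAAA was in the second Lhx2 window and in that of Foxc1, against 37.6%. The TATA box TATAAA was in none of them and in 7.6% of all windows. The motifs and the window length were chosen after the expression values had been seen, and a match is only a description of letters.

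Tbx1, a T-box transcription factor that marks bulge stem cells, had the largest mean difference of the 4 genes in both comparisons, although at N-CE 1W that of Lhx2 lay within the SD of it. At 2W its processed signals were 14030 and 12510 in the MXD pool against 6531 and 5152 in the VC pool on the same arrays. Both MXD readings lay above both VC readings. The log2 fold was 1.1 and 1.3 on the arrays, 1.19 ± 0.13 (SD, n = 2) on average, a fold of 2.28. At 1W the signals were 2052 and 2224 in the N-CE pool against 4740 and 5405 in VC, and the log2 fold was -1.24 ± 0.05, so that N-CE was lower on both arrays. The other comparisons gave Tbx1 log2 folds between -0.07 ± 0.07 (MXD 3W) and 0.43 ± 0.06 (N-CE 2W), and none was called.

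Sox9, an HMG-box transcription factor required to form and keep the bulge, was read by a probe printed 10 times on each array and by another probe printed once. The processed signals of the first were 7083 and 5850 in MXD at 2W against 3459 and 2927 in VC, with log2 folds of 1.03 and 1.00 and a mean of 1.02 ± 0.03. At 1W they were 1322 and 1319 in N-CE against 2250 and 2310 in VC, with log2 folds of -0.77 and -0.81 and a mean of -0.79 ± 0.03. The groups did not overlap in either comparison. The probe printed once was called in the same directions, at 1.03 ± 0.13 and -0.74 ± 0.19. The copies of the first probe varied little on an array, with SDs of their log2 folds between 0.017 and 0.041. In the other comparisons Sox9 lay between -0.10 ± 0.14 (MXD 3W) and 0.50 ± 0.05 (N-CE 2W).

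A further Sox9 probe was dim, above background in 14 of 24 channel readings, and was called nowhere. It is printed beside a dim second probe of Lgr6 and the Krt15 probe, 60 bases each on mm9, because these probes read differently from the rest; the probes shown were picked after their values had been seen, among those that hold a reading frame without a stop codon. All letters are lower case since no part of a probe stands out.
Sox9 probe, chr11:112644310-112645162, plus strand: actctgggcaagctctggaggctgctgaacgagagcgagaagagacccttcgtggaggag
Lgr6 probe, chr1:136883782-136883841, minus strand: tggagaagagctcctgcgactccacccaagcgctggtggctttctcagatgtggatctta
Krt15 probe, chr11:99993340-99993399, minus strand: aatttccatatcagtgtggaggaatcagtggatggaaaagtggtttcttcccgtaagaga
The Sox9 sequence aligns over 853 bases of the genome, so that a gap lies within it, whereas the bright Sox9 probes align without one. Its log2 fold at MXD 2W was 0.32 ± 0.02, against 1.02 ± 0.03 for the probe printed 10 times. At N-CE 1W its N-CE reading was not well above background on either array while its VC reading was on both, and no fold is given.

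Foxc1, a forkhead transcription factor tied to stem cell quiescence, had signals of 8384 and 6534 in MXD at 2W against 4625 and 3280 in VC. Its log2 folds were 0.86 and 0.99, with a mean of 0.93 ± 0.10. In N-CE at 1W it read 1456 and 1390 against 2394 and 2345 in VC, and the log2 fold was -0.74 ± 0.03. Foxc1 was thus higher in MXD and lower in N-CE on every array of these comparisons. In the others it ranged from -0.22 ± 0.09 (MXD 3W) to 0.32 ± 0.08 (N-CE 2W).

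Lhx2, a LIM homeobox transcription factor of bulge and hair germ cells, read 11470 and 10960 in MXD at 2W against 7423 and 5379 in VC. The log2 folds were 0.63 and 1.03, so that the arrays differed more than for the other 3 genes, and the mean was 0.83 ± 0.28. In N-CE at 1W Lhx2 read 3297 and 3239 against 7445 and 7679 in VC, at -1.21 ± 0.05. All other Lhx2 values lay above 0, from 0.05 ± 0.01 (MXD 3W) to 0.43 ± 0.24 (N-CE 2W), and none was called.

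Among the genes lower after MXD at 2W, Cd34 had the largest difference. Cd34 is a sialomucin on the surface of mouse bulge keratinocytes and also of vascular endothelium, blood progenitors and mast cells. Its signals were 20390 and 16270 in MXD against 48850 and 35940 in VC, and the log2 folds were -1.26 and -1.14, a mean of -1.20 ± 0.08 and a fold of 0.435. The MXD pool lay below VC on both arrays. In the other 5 comparisons Cd34 stayed between -0.20 ± 0.17 (N-CE 2W) and 0.11 ± 0.08 (N-CE 1W).

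Nfatc1, a calcineurin-regulated transcription factor that holds bulge cells in quiescence and is also active in endothelium and T cells, read 701 and 592 in MXD at 2W against 1293 and 973 in VC. The mean log2 fold was -0.80 ± 0.12. A second Nfatc1 probe, above background in all 24 readings, was lower on both arrays too but differed between them, at -0.44 ± 0.45, and was not called. Elsewhere the first Nfatc1 probe gave values from -0.14 ± 0.17 (MXD 3W) to 0.17 ± 0.33 (N-CE 3W).

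The R-spondin receptors Lgr5 and Lgr6, which strengthen Wnt signalling where R-spondin is present, did not go together. Lgr5, a marker of the lower bulge and hair germ, read 3277 and 2613 in MXD at 2W against 2235 and 1799 in VC, with log2 folds of 0.55 and 0.54. The mean of 0.55 ± 0.01 is a fold of 1.46, and the error model gave 0.00861 and 0.0103 on the arrays, so Lgr5 missed both thresholds narrowly. In N-CE at 1W it read 1139 and 956 against 1378 and 1634, and the arrays disagreed in size, at -0.27 and -0.77.

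Lgr6, which marks cells of the upper follicle above the bulge, read 373 and 299 in MXD at 2W against 557 and 541 in VC. Its log2 folds were -0.58 and -0.86, with a mean of -0.72 ± 0.20. It was also lower after MXD at 1W, at -0.38 ± 0.05, without being called. The dim Lgr6 probe printed above was above background in 17 of 24 readings and gave -0.24 ± 0.61 at MXD 2W, with the arrays on opposite sides of 0. The remaining Lgr6 values of the bright probe lay between -0.06 ± 0.10 (N-CE 2W) and 0.20 ± 0.34 (N-CE 3W). A second Lgr5 probe was above background in 0 of 24 readings and gives no value.

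The promoters of the called receptor and of Cd34 follow for comparison with those of the genes that moved the other way at MXD 2W, in the same 150-base windows on GRCm38.p6, 5′ to 3′, and with the GC box to be marked in capitals.
Lgr6, chr1:135105277-135105426, minus strand: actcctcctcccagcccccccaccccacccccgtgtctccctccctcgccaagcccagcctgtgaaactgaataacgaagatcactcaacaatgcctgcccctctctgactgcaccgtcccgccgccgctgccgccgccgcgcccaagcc
Cd34, chr1:194938671-194938820, plus strand: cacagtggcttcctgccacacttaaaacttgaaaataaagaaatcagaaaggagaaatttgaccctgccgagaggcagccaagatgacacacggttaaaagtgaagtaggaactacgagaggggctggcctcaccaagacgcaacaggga
None of the 4 motifs was found in either window, and both lines are therefore in lower case throughout. The G and C content was 68.0% for Lgr6 and 48.0% for Cd34. It was 61.3% for Foxc1, 81.3% and 62.7% for the first and second start of Lhx2, and 71.3% and 60.7% for those of Tbx1. The content over all RefSeq windows was not computed, so these values have no background.

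Krt15, a keratin of basal cells that is strong in the bulge, differed in size between the dye orientations. With MXD at 2W it read 86340 against 91460 in VC on the array with MXD in Cy5, and 36620 against 75320 on the array with MXD in Cy3. The log2 folds were -0.08 and -1.04, a mean of -0.56 ± 0.68, so that both lay below 0 but only the second was far from it. At MXD 1W they were -0.0004 and -0.85, and in the other 4 comparisons the arrays lay on opposite sides of 0. Krt15 was higher on the array with treated RNA in Cy5 in all 6 comparisons, by between 0.27 (N-CE 3W) and 0.96 (MXD 2W) on the log2 scale. The direction was not particular to Krt15. Lgr5 and Sox9 were also higher on that array in all 6, by 0.01 to 0.50 and by 0.04 to 0.24. Between 4 (MXD 2W) and 8 (N-CE 1W and 3W) of the 9 genes were higher on that array in a comparison. The cause of these gaps was not tested.

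**Figure D2:**
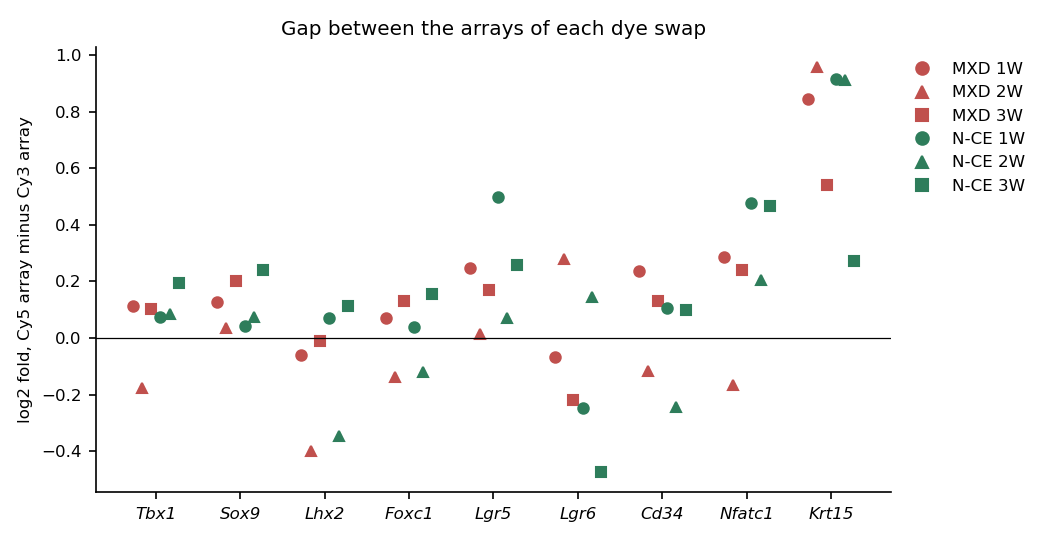
Log2 fold on the array with treated RNA in Cy5 minus that on the array with treated RNA in Cy3, for each of the 9 genes; red is MXD, green is N-CE, and the symbol gives the week. Krt15 lies between 0.27 and 0.96 in all 6 comparisons, while Tbx1, Sox9 and Foxc1 stay between -0.18 and 0.24 and Cd34 between -0.24 and 0.24. The widest gaps of the other genes are 0.50 for Lgr5, 0.48 for Nfatc1, -0.47 for Lgr6 and -0.40 for Lhx2.

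The median log2 fold of the 9 genes was 0.55 ± 0.01 (SD of the array medians, n = 2) after MXD at 2W and -0.52 ± 0.34 after N-CE at 1W, beside medians over all genes tested of 0.03 and 0.02. Both medians are the value of Lgr5, the gene in the middle of the order in either comparison. At N-CE 2W the median was 0.29 ± 0.01, with 5 genes above 0, and at N-CE 3W it was 0.20 ± 0.18, with 8 of 9 above 0 and Foxc1 at -0.10 ± 0.11. MXD gave medians of -0.12 ± 0.17 at 1W and -0.10 ± 0.14 at 3W. The dye swap of N-CE at 2W repeated poorly over all genes (r = -0.16 across 16600 genes above background, which are not independent), so its values rest on weaker ground than those of MXD at 2W (r = 0.74) and N-CE at 1W (r = 0.68). For Sox9, Tbx1, Lhx2, Foxc1 and Lgr5 both N-CE 2W arrays lay above 0 all the same.

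The levels in single channels show where the VC pools stood. Log2 levels can be compared for a gene between pools of a week but not between genes. Each week is 1 VC pool on 1 slide, so a difference between weeks cannot be told apart from one between slides or pools. In VC, Tbx1 was at 11.86 ± 0.04, 11.51 ± 0.07 and 12.02 ± 0.14 (SD over 4 readings) at 1W, 2W and 3W, and Lhx2 at 12.14 ± 0.11, 11.41 ± 0.28 and 11.93 ± 0.13. Both were thus lowest at 2W, the week at which MXD was called above VC. The VC level is the base of that fold, so the level and the fold are not independent. Cd34 was at 13.74 ± 0.08, 14.17 ± 0.16 and 13.49 ± 0.22, and was highest at 2W, the week at which MXD was called below VC. The same limit holds for it. Sox9 and Foxc1 were highest in VC at 3W, at 11.02 ± 0.14 and 11.57 ± 0.39. Nfatc1 stood at 9.37 ± 0.07 at 1W and lower, at 8.50 ± 0.22, at 3W, and the VC readings of Lgr5, Lgr6 and Krt15 overlapped between weeks.

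Within a week the order of the 3 pools can be read without the slide. At 2W Tbx1, Sox9, Foxc1 and Lgr5 all ran MXD, N-CE, VC from high to low, with no overlap between neighbours, for example Tbx1 at 12.65 ± 0.11, 11.96 ± 0.04 and 11.51 ± 0.07. Lhx2 had the same order at 2W, but its N-CE and VC readings overlapped. Cd34, Nfatc1 and Lgr6 were lowest in MXD at 2W, and their N-CE and VC readings overlapped. At 1W Tbx1, Sox9, Lhx2 and Foxc1 were lowest in N-CE, and their MXD and VC readings overlapped, while Lgr5 ran MXD, VC, N-CE with no overlap. At 3W the N-CE readings lay above those of both other pools for Sox9, Lhx2 and Tbx1, and overlapped with VC for the other genes. Foxc1, at nearly the same mean level in N-CE (11.57 ± 0.56) and VC (11.57 ± 0.39), was below VC on both N-CE arrays when compared on the same array. Readings of a VC pool beside MXD and beside N-CE differed by -0.38 to 0.34 for these genes. Differences of this size between the levels of any pools thus lie within what repeated readings of one RNA gave. They include the steps from VC up to N-CE for Lgr5 and Foxc1 at 2W, and for Sox9, Lhx2 and Tbx1 at 3W.

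**Figure D3:**
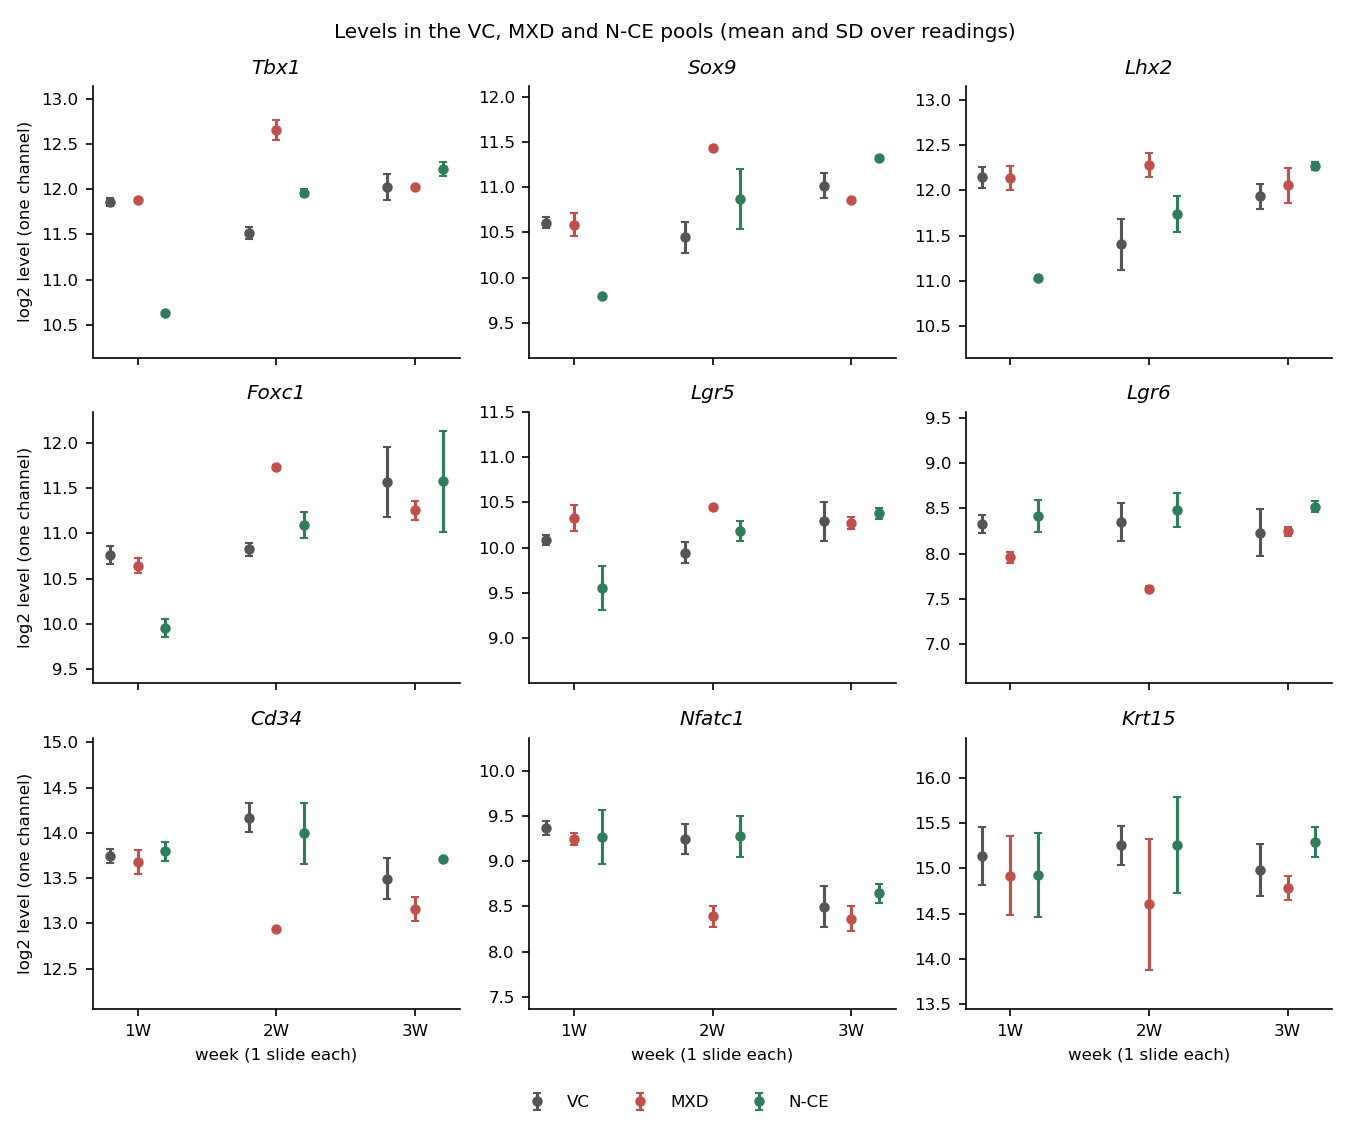
Single-channel log2 level of each gene in the VC, MXD and N-CE pools by week; points are means and bars SDs over 4 readings for VC and 2 for MXD and N-CE. Tbx1 at 2W runs from 11.51 in VC to 12.65 in MXD, and at 1W N-CE is lowest for Tbx1, Sox9, Lhx2 and Foxc1.

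Of 22 other genes named in follicle stem cells, 4 were higher and 2 lower after MXD at 2W, with a median of 0.36 ± 0.07. After N-CE at 1W 4 were lower, with a median of -0.32 ± 0.20. Among all genes tested, 6.21% were higher and 10.0% lower after MXD at 2W, and 2.78% were lower after N-CE at 1W. The count of 2 lower of 22 is thus near the share of all genes. Higher with MXD were the transcription factor Runx1 (1.18 ± 0.37), the Wnt inhibitors Wif1 (1.06 ± 0.08) and Sfrp1 (0.97 ± 0.49), and the vitamin D receptor Vdr (0.73 ± 0.07). The growth factor Fgf18, which favours the resting phase, and the hemidesmosomal collagen Col17a1 were lower, at -1.13 ± 0.41 and -0.91 ± 0.22. After N-CE at 1W the hedgehog effector Gli1 (-1.63 ± 0.27), Wif1 (-1.24 ± 0.04), Vdr (-0.84 ± 0.07) and Plet1 (-0.65 ± 0.15) were lower. None of the 22 was called in the other 4 comparisons, in which at most 1.26% of all genes were called in either direction, so this is no result about them. Of 8 genes for R-spondins and Wnt feedback, Rspo2 alone was called, at 0.77 ± 0.12 after MXD at 1W, where 7 were measured. Their medians were 0.55 ± 0.13 at MXD 2W, where 8 were measured, and -0.36 ± 0.0016 at N-CE 1W, where 6 were.

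Lists of other cell types moved in the same comparisons. Among all genes tested, 6.21% were higher after MXD at 2W and 2.78% lower after N-CE at 1W. Of 13 genes of hair matrix and inner root sheath, 12 were higher after MXD at 2W and 11 lower after N-CE at 1W, led by the Wnt effector Lef1 (1.47 ± 0.08) and the sheath protein trichohyalin, Tchh (-3.06 ± 0.0017). Their summed processed signal ranged from 664500 to 723100 in MXD against 278600 to 328900 in VC at 2W, and from 46500 to 56720 in N-CE against 267400 to 312800 in VC at 1W. Of 12 proliferation genes, 9 were higher at MXD 2W, with a summed signal of 82580 to 97670 against 50760 to 60640, and 9 lower at N-CE 1W, with 25200 to 26160 against 38270 to 42360. The rises and falls of Tbx1, Sox9, Lhx2 and Foxc1 therefore stood beside changes in the same direction in follicle and proliferation genes. The part of these lists in the members' values was not tested.

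Cd34, Nfatc1 and Lgr6 were lower at MXD 2W together with genes of cells outside the follicle. Among all genes tested, 10.0% were lower in that comparison and 6.21% higher. Of 11 endothelial genes 5 were lower, with a summed signal of 14450 to 16800 in MXD against 21600 to 24910 in VC. Among dermal fibroblast genes 3 of 7 were lower (270600 to 392000 against 520900 to 661100), and among leukocyte genes 5 of 8 (6723 to 7990 against 11500 to 13430). For mast cell genes 2 of 6 measured were lower (15220 to 22390 against 29790 to 30410), for adipocyte genes 5 of 8 (147000 to 194200 against 203000 to 249400), and for skeletal muscle genes 10 of 10 (194500 to 353100 against 632300 to 773000). In the interfollicular epidermis list, the differentiation genes Krt10, Krt1 and Lor, 3 of 8, were lower and Ivl was higher (357100 to 527500 against 625100 to 647600). The mast cell tryptase gene Tpsab1 was not above background in that comparison, and every other gene of these lists was. The part of these lists in the values of Cd34, Nfatc1 and Lgr6 was not tested.

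**Figure D4:**
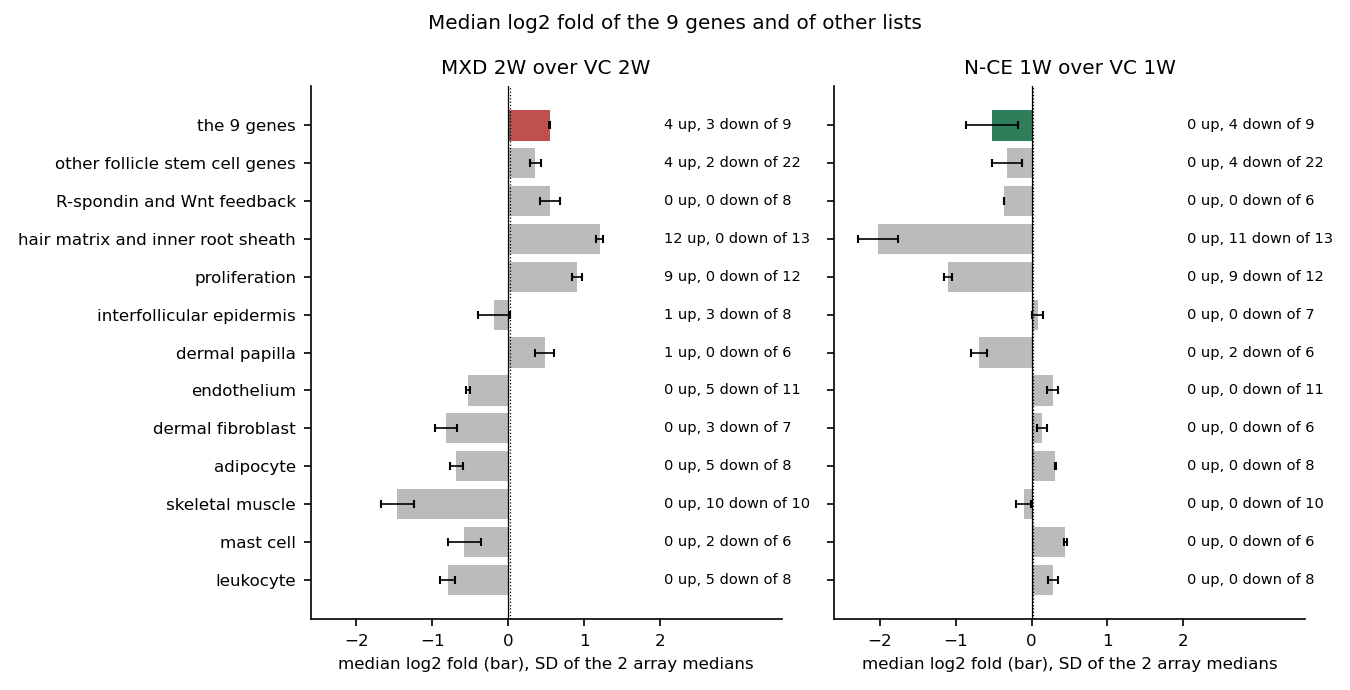
Median log2 fold of the 9 genes (coloured) and of 12 other lists (grey) after MXD at 2W and N-CE at 1W; error bars are SDs of the 2 array medians, the dotted line is the median of all genes, and the counts give genes called of genes measured. At MXD 2W the medians run from -1.46 for skeletal muscle to 1.20 for hair matrix and inner root sheath, and that of the 9 genes is 0.55.

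The genes whose log2 folds ran most like a member over the 12 arrays were named for the 7 members called at least once, among 14621 genes above background in every channel. Tbx1 was itself among the nearest genes of Sox9 (Pearson r = 0.98), and Vdr was among those of Tbx1 (0.98). Next to Sox9 stood also Ptprk and the chemokine Cxcl14 (both 0.98), and next to Lhx2 stood 2010300C02Rik (0.99), LOC101055889 (0.98) and the homeobox gene Barx2 (0.97). Foxc1 ran with Gdpd1, Sema6a and Thsd1 (0.99 each), and Tbx1 further with B930095G15Rik (0.99) and Tenm2 (0.98). Cd34 ran with the signal transducer Stat5a (0.99), Adra2a and Mst1 (0.98 each), and Nfatc1 with Mamstr (0.97), Vapb (0.95) and Dvl1 (0.93). Lgr6 ran with the fast muscle actinin Actn3 (0.98), the laminin chain Lamb3 (0.97) and Panx3 (0.96). These values are descriptions over 12 arrays that hold 6 dye swaps and share 3 VC pools, so the points are not independent.

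The probes lie, on mm9, at chr10:114888847-114888906 (Lgr5), chr1:136880538-136880597 (Lgr6), chr1:196787392-196787451 (Cd34), chr11:99993340-99993399 (Krt15), chr11:112648809-112648868 (Sox9), chr2:38224933-38224992 (Lhx2), chr18:80803664-80803723 (Nfatc1), chr16:18581816-18581875 (Tbx1) and chr13:31901257-31901316 (Foxc1), for the probe that stands for each gene. Of the 14 probes, 12 carry an accession that the RefSeq table pairs with the same symbol, and the second Lgr5 probe and the bright Lgr6 probe carry others. The called Lgr6 value at MXD 2W therefore comes from the unmatched probe, and the Lgr6 probe with a matched accession is the dim one that was not called. Exon and untranslated region annotation on mm9 was not used here.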

How the data were processed

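RNA of 9 pools of 6 mice was measured on 12 two-colour arrays. The authors deposited the Agilent Feature Extraction output of each array, version 12.0.3.1 per the file headers (11.0.1.1 in the submitters' processing notes). The log10 ratio of Cy5 over Cy3 deposited by the authors had been background-subtracted and LOWESS dye-normalized, and the p-value that the authors deposited is that of the software's error model for a spot. Raw and processed intensities of both channels were also deposited. A deposited log10 ratio matrix equals these log10 ratios at all 43379 spots within 1e-05.

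Log ratios were converted to log2 and turned to treated over VC. Control and outlier-marked spots were left out (9 readings of member spots). Log ratios of a probe's spots were averaged, and its P is the median over spots, so that of the Sox9 probe with 10 copies is a median of copies. The probe with the highest mean processed signal stood for a gene. Genes with a channel well above background on at least 1 array were tested, and the call rule used P under 0.01 with the fold thresholds of the study's methods, 1.5 and 0.75. Levels came from mean and background intensities after normexp with offset 50, loess and Aquantile. Python 3.11.15, numpy 2.4.6, pandas 2.3.3, R 4.3.3 and limma 3.58.1 were used, and the call rule was tested on simulated data. The alternatives were another background correction, the series matrix, median centring, all probes, outlier spots kept, each array alone, fold without P, a stricter lower fold, and other filters on dim probes.

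The members, the 12 lists (120 genes, all on the array) and the rule for named genes (all members, up to 4 called genes of a list, and the 3 genes most like each member) were chosen with earlier results of these data known. The number of arrays limits the precision, and spots above background made up 56.96% to 64.98% in Cy3 and 61.28% to 69.6% in Cy5.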

Additional observations from a re-analysis of the deposited data

Results flagged for a closer look

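For 20 pairs of weeks within 1 treatment, both arrays of a member lay on one side of 0 at one week and both on the other side at another week. Each difference below is the later log2 fold minus the earlier one. None was tested, since each week is 1 pool a group on 1 slide, and several rest on values near 0.

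After N-CE, the 4 genes called lower at 1W lay above 0 at 2W, and the difference was 1.67 for Tbx1, 1.64 for Lhx2, 1.29 for Sox9 and 1.06 for Foxc1. From 1W to 3W it was 1.52 for Tbx1, 1.63 for Lhx2 and 1.04 for Sox9. Foxc1 differed by -0.42 from 2W to 3W. Lgr5, not called, differed by 0.81 from 1W to 2W and by 0.77 from 1W to 3W. Cd34 differed by -0.31 from 1W to 2W and by 0.26 from 2W to 3W.

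After MXD, Sox9 differed by 1.09 and Foxc1 by 1.13 from 1W to 2W. From 2W to 3W the difference was -1.26 for Tbx1, -1.15 for Foxc1, 0.88 for Lgr6 and -0.71 for Lgr5. From 1W to 3W it was 0.54 for Lgr6 and -0.40 for Lgr5.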

How the results depend on the processing

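All 11 called values kept their sign under the 7 alternatives that recompute a fold, and all stayed called except Lgr6 (-0.48) and Nfatc1 (-0.62) at MXD 2W when all probes of a gene were averaged. Both averaged folds still passed the lower fold threshold, and the calls were lost on P, taken there as the median over probes. On the first array the error model gave 0.642 for the dim Lgr6 probe and 0.544 for the second Nfatc1 probe. For the series matrix, centring and either array alone the sign of a called value could not change. The matrix holds the same ratios, centring subtracted 0, and a call already needs the same sign and P under 0.01 on both arrays. With 1 array a call could be lost only on the fold. The sign could have changed only with normexp and loess, with all probes, or with outlier spots kept. Without P, 1 member was called at MXD 1W (Krt15, -0.42), and each array alone gave 0 to 1 there and 0 to 2 at N-CE 2W (Krt15 -0.56 and Lhx2 0.60 on the second array). The second array alone or the fold alone also added Krt15 at MXD 2W and Lgr5 at N-CE 1W (-0.77 and -0.52). With normexp and loess the members' median was 0.47 at MXD 2W and 0.27 at N-CE 2W, and each array alone gave 0.25 to 0.26 at N-CE 2W. With the first and the second array alone the median was -0.27 and -0.75 at N-CE 1W, 0.37 and 0.12 at N-CE 3W, -0.0004 and -0.23 at MXD 1W, and -0.02 and -0.22 at MXD 3W, each differing by over 1.5 times from the median over both arrays on at least 1 array. Of the 54 single values, 5 moved beyond their SD with all probes and 4 with normexp and loess. Centring changed nothing because every array's median log ratio is 0 when taken over all genes, those not above background included. Over the genes tested the medians were 0.03 at MXD 2W and 0.02 at N-CE 1W. No paired analysis was possible because each group is 1 pool. The limits are 1 pool a group, 2 arrays a comparison, 1 slide a week and a VC pool shared by both treatments.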
